A study of Bos taurus with 9 samples.

Results

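Bovine oocytes given microplastics together with taurine were set against control oocytes, to see which transcripts still differed from control when taurine was present. The comparison took 3 libraries of the combined treatment and 3 control libraries, 6 of the 9 libraries in the study, and covered every gene of the deposited table. Estimated reads of 22590 transcripts were summed to 17852 genes, of which 13206 had enough reads to test and 4646 did not. All groups were female germ cells at metaphase II. The control group carried no added agent per the labels, the second group received microplastics, and the last received microplastics + taurine; its libraries are called taurine 1, 2 and 3 here. The labels used here name no particle type, dose, exposure time, animal or number of oocytes pooled per library. They do not state whether groupmates are separate animals, cultures or portions of one pool. The p-values therefore reflect the spread among these particular samples, and that spread may be technical.

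A metaphase II oocyte is arrested in meiosis and largely silent in transcription, and it lives on messenger RNA stored during growth. That store is translated, kept dormant or destroyed in a programmed order as the oocyte matures, so a difference in transcript level between such oocytes can come from how much was stored or how much was removed. Taurine is a sulfur-containing amino acid found at high levels in oviduct and follicular fluids, made from cysteine by CDO1 and CSAD, and used in culture media as an osmolyte and antioxidant. Microplastics are small polymer particles. Oxidative stress, mitochondria and apoptosis are the processes named in the study's title.

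The 9 libraries held 21.17 to 22.74 M estimated reads. Levels are given as CPM, counts scaled to a fixed library total, after TMM scaling, and 3 reads in a library is taken as the floor of detection. Among 17 oocyte markers, all measured, the summed level was 92158 to 121647 CPM in control and 83657 to 110419 CPM with taurine. Much of this sum was 1 gene, BTG4, at 48654 to 66079 CPM in control and 46479 to 63135 CPM with taurine. Markers of cumulus and granulosa cells, the somatic cells around the oocyte, summed to 514 to 619 CPM in control and 524 to 572 CPM with taurine. Stromal markers summed to 11.4 to 21.7 CPM in control, and to 18.3, 26.4 and 65.9 CPM in taurine 1, 2 and 3. Endothelial markers summed to 26.9 to 49.0 and 28.4 to 45.8 CPM, leukocyte markers to 9.58 to 18.0 and 6.84 to 10.6 CPM, and epithelial markers to 240 to 354 and 209 to 370 CPM in control and taurine. Erythroid markers, mainly globins, summed to 31.1 to 67.2 CPM in control and 17.3 to 23.9 CPM with taurine, without overlap. The median over a list of log2 CPM minus the gene's mean over the 6 libraries also varied. For 5 tested epithelial markers it was 0.33, 0.03 and 0.05 in control, and -0.01, -0.26 and 0.89 in taurine 1, 2 and 3. For 4 tested leukocyte markers it was -0.15, 0.11 and 0.70 in control 1, 2 and 3, and 0.18, -0.02 and -0.71 with taurine. The part of these cells in the results was not tested. Of the listed markers, 19 of 20 cumulus and granulosa, 3 of 5 erythroid, 4 of 5 endothelial and 7 of 8 stromal were measured. The other lists were measured in full, and no measured marker was at 0 in all 6 libraries. In RNA from whole samples, fewer cells of a type and less RNA per cell cannot be told apart.

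Almost nothing passed the test when all libraries were used. In edgeR's quasi-likelihood test with Benjamini-Hochberg adjustment over all genes, 1 of 13206 genes (0.00757%) differed from control at an adjusted p under 0.05. It was gene ID 539802, which matched no symbol in the RefSeq gene table, and it was higher with taurine. The next smallest adjusted p was 0.70. Differences between the groups were mostly small: the median absolute log2 fold change was 0.23, and 505 genes (3.82%) reached an absolute value of 1.

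Gene ID 539802 had 0 reads in each control library and 67, 27 and 36 reads in taurine 1, 2 and 3, or 3.18, 1.30 and 1.97 CPM. All 3 taurine libraries lay above all 3 controls. The log2 fold change fitted against these counts of 0 was 8.59 (adjusted p = 0.0223, edgeR quasi-likelihood test). Set against a control floor of 3 reads per library, without a test, the taurine mean was at least 13.2-fold higher. Microplastics libraries, measured against the same controls, held 167, 153 and 120 reads, a mean at least 32.8-fold above that floor. The deposited counts are shares of reads divided among transcripts, so a listed 0 may reflect the assignment, which was not tested. The call depended on the setting: it was kept in 10 of 19 other settings, with adjusted p from 5.28e-06 to 0.837, and was lost when any 1 control or any 1 microplastics library was left out (adjusted p 0.0578 to 0.121) or when the 6 compared libraries were fitted alone (0.837).

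At an unadjusted p under 0.05 there were 753 genes (5.7%), 401 higher with taurine and 352 lower. Taurine libraries lay above every control library in 606 genes (4.59%) and below every control library in 603 (4.57%). These shares are the background for each gene described next. How well a difference could be seen varied with the level of the gene. The 95% interval of the log2 fold change reached a median of 0.64 to either side of the estimate, and it lay wholly between -1 and 1 in 7589 genes (57.5%). Among 8335 genes averaging at least 5 CPM over the 6 libraries the share was 80.7%, and among 4871 genes below that level it was 17.7%. Differences below 2-fold in the weaker genes were therefore often not detectable with this spread. That spread was estimated over all 9 libraries, and microplastics groupmates were mostly more alike. They differed by 46.9 to 63.4 times the variance that counting alone gives. Control groupmates differed by 57.8 to 154 times and taurine groupmates by 94.0 to 208 times. The intervals may therefore be too narrow for taurine against control. With the 6 compared libraries alone, 448 of 12642 genes had an unadjusted p under 0.05 (edgeR).

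The genes with the smallest unadjusted p were not called by the quasi-likelihood test. Their groups do not overlap, which a choice by smallest p favours. Among those higher with taurine, NOP9, an RNA-binding protein needed to process the RNA of the small ribosomal subunit, was at 4.08, 4.33 and 4.53 CPM in control and at 21.2, 18.1 and 8.70 CPM in taurine 1, 2 and 3. Taurine 3 lay closest to the controls. The log2 fold change was 1.89 (95% interval 1.12 to 2.66, adjusted p = 0.70, edgeR), and the Wald test of DESeq2 did call it. XPNPEP1, an aminopeptidase that cleaves before proline, was at 11.7, 13.8 and 14.3 CPM in control and at 23.8, 24.1 and 28.4 CPM with taurine. Its log2 fold change was 0.94 (0.52 to 1.36), and it was likewise called by DESeq2 alone. PLCL2, a phospholipase C-like protein without catalytic activity, was tight in both groups, at 14.6, 15.5 and 15.9 CPM against 24.5, 24.7 and 24.8 CPM. Its log2 fold change was 0.68 (0.30 to 1.07).

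Further genes of this side came from endosomes, metabolism and the germline. VPS26C, a subunit of the retriever complex that recycles cargo from endosomes, was at 24.9, 20.5 and 28.0 CPM in control and at 34.4, 49.7 and 53.1 CPM with taurine, a log2 fold change of 0.90. ZGLP1, a zinc finger regulator of the oogenic programme, was at 53.8, 51.2 and 53.8 CPM in control and at 69.0, 94.9 and 98.8 CPM with taurine, a log2 fold change of 0.73. SELENBP1, a selenium-binding methanethiol oxidase, was at 253, 318 and 389 CPM in control and at 605, 502 and 529 CPM with taurine, a log2 fold change of 0.77. Its microplastics libraries, at 323, 400 and 319 CPM, lay within or just above the control range. ATP5F1B, the catalytic beta subunit of ATP synthase, was at 37.5, 44.98 and 62.2 CPM in control and at 76.6, 85.0 and 83.8 CPM with taurine (log2 fold change 0.76, interval 0.33 to 1.19). CENATAC, a factor of the minor spliceosome, KREMEN1, a receptor that dampens Wnt signalling, and ZDHHC5, a palmitoyltransferase, completed the set with log2 fold changes of 0.80, 1.15 and 0.79. KREMEN1 had 1 taurine library, taurine 3 at 3.06 CPM, next to the highest control at 2.96 CPM.

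Among genes lower with taurine, DEGS1, the desaturase that completes ceramide synthesis, was at 544, 416 and 458 CPM in control and at 236, 281 and 258 CPM with taurine. The groups were separated by a wide gap, with a log2 fold change of -0.87 (-1.21 to -0.53, adjusted p = 0.70, edgeR). Microplastics libraries were lower again, at 110, 110 and 102 CPM. CREG1, a lysosomal glycoprotein, was at 117, 91.2 and 141 CPM in control, at 41.8, 69.8 and 43.3 CPM with taurine, and at 11.3, 12.9 and 11.2 CPM with microplastics. Its log2 fold change with taurine was -1.17 (-1.68 to -0.67). DESeq2's Wald test called DEGS1 and CREG1, and with gene ID 539802, NOP9 and XPNPEP1 these were all 5 genes it called (0.0379%). ERP44, a chaperone that retains oxidoreductases in the early secretory pathway, was at 399, 183 and 256 CPM in control, 134, 161 and 140 CPM with taurine and 30.3, 32.2 and 30.7 CPM with microplastics. Its log2 fold change with taurine was -0.95.

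The other genes lower with taurine had levels under 100 CPM. CITED2, a co-regulator that binds CBP and p300, was at 91.8, 56.7 and 57.4 CPM in control and at 35.4, 40.5 and 21.2 CPM with taurine, a log2 fold change of -1.08. RAB13, a small GTPase of junctional trafficking, was at 80.2, 90.4 and 66.6 CPM in control and at 44.3, 25.9 and 44.2 CPM with taurine, a log2 fold change of -1.05. RND3 had the greatest difference of the 20 genes, at 2.83, 11.7 and 3.53 CPM in control and at 1.38, 0.627 and 1.26 CPM with taurine. The log2 fold change was -2.46 (-3.77 to -1.15), or -1.55 without control 2, the highest library. CENPB, which binds centromeric satellite DNA, ANKRD1, an ankyrin repeat protein induced by YAP signalling, GIMAP8, a GTPase of the immune-associated family, and SLC12A1, a sodium, potassium and chloride cotransporter, had log2 fold changes of -1.36, -1.51, -1.25 and -0.82. Taurine and microplastics values for these genes are set against the same control libraries, so a control library that is off moves both.

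**Figure D1:**
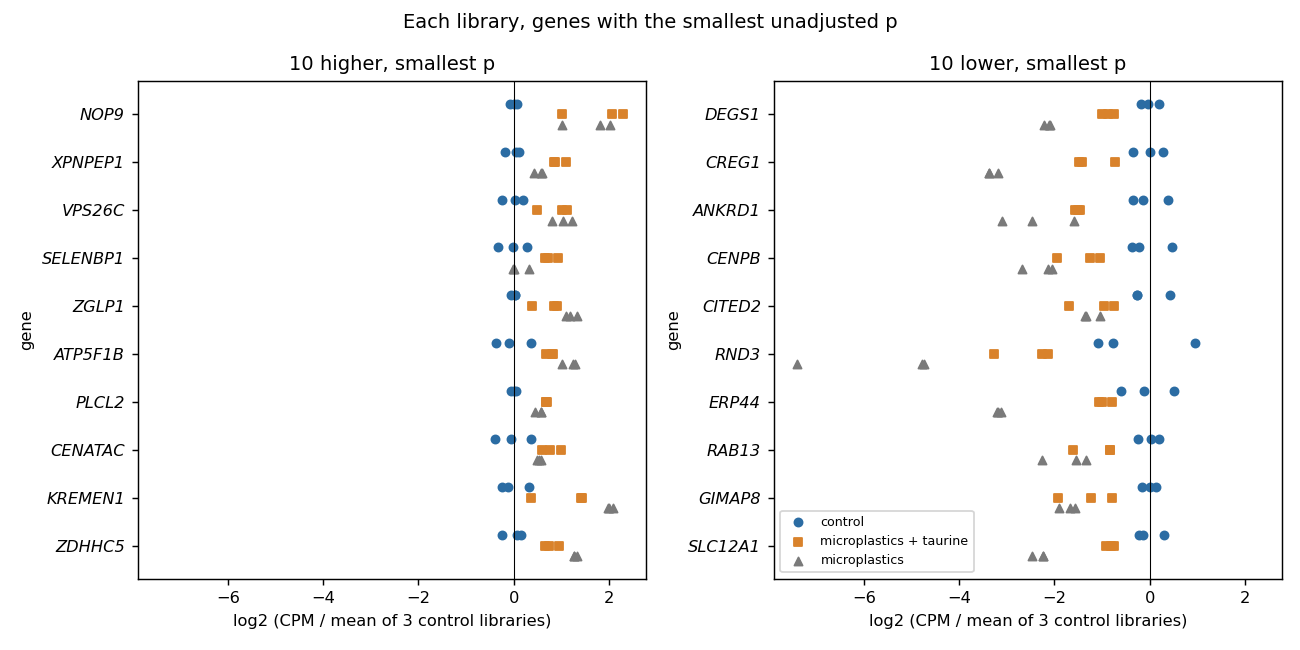
Level of each library relative to the mean of the 3 control libraries (log2 scale, horizontal axis) for the 10 higher and 10 lower genes with the smallest unadjusted p; circles are control, squares microplastics + taurine and triangles microplastics libraries. Taurine squares lie outside the control range for all 20 genes, which a choice by smallest p favours. For NOP9 and KREMEN1 taurine 3 is the square nearest the controls.

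A second set of genes was taken by name, with earlier results on microplastics in view: transcripts far lower or higher with microplastics, antioxidant and apoptosis genes, and oocyte factors. Of these 27 genes none was called with taurine by the quasi-likelihood test, 11 had estimates above 0 and 16 below. For 7 and 14 of them the whole 95% interval lay between -1 and 1. The same held for 57.5% of all genes tested and 80.7% of genes averaging at least 5 CPM. THOC6, part of the THO complex, which couples mRNA to export,, was at 146, 104 and 147 CPM in control and at 168, 123 and 110 CPM with taurine, a log2 fold change of 0.01 (-0.47 to 0.50). With microplastics it was at 5.62, 7.36 and 4.71 CPM, a log2 fold change of -4.49. SMIM11, a small membrane protein, was at 151, 142 and 123 CPM in control and at 122, 172 and 115 CPM with taurine, with overlapping groups and a log2 fold change of -0.02 (-0.62 to 0.57). Its microplastics libraries were at 15.5, 7.17 and 7.58 CPM.

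HSD11B2, the enzyme that inactivates cortisol, was at 97.8, 116 and 85.7 CPM in control and at 72.1, 134 and 103 CPM with taurine (log2 fold change 0.05, -0.70 to 0.80). RPS19, a protein of the small ribosomal subunit, was at 80.4, 89.9 and 74.4 CPM in control and at 105, 56.4 and 67.4 CPM with taurine (-0.09, -0.70 to 0.51). NDUFA6, an accessory subunit of respiratory complex I, was at 194, 210 and 150 CPM against 181, 194 and 165 CPM (-0.04, -0.41 to 0.34). In all 3 genes the taurine and control libraries overlapped, while microplastics libraries reached at most 18.0, 10.1 and 46.9 CPM. NUDCD2, a cochaperone of HSP90, and PLAC1, a protein of oocyte and placenta, were less close to control. NUDCD2 was at 183, 127 and 121 CPM in control and at 96.5, 112 and 111 CPM with taurine, without overlap (-0.43, -0.92 to 0.05). PLAC1 was at 18.8, 15.5 and 10.01 CPM in control and at 7.98, 11.2 and 9.52 CPM with taurine (-0.63, -1.28 to 0.03), so a 2-fold lower level lies within its interval.

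On the other side stood genes that were higher with microplastics. DHX58, which encodes the RNA sensor LGP2, was at 14.3, 13.2 and 14.6 CPM in control and at 20.0, 21.3 and 20.2 CPM with taurine. The taurine libraries all lay above control and far under the microplastics libraries at 58.6, 50.8 and 54.4 CPM, and the log2 fold change with taurine was 0.55 (0.18 to 0.92, adjusted p = 0.855, edgeR). VPS16, of the HOPS and CORVET tethering complexes, was at 9.09, 8.88 and 14.3 CPM in control and at 14.5, 15.8 and 14.4 CPM with taurine (0.47, -0.03 to 0.97). Control 3 lay beside the taurine libraries, at a level well above control 1 and 2. NEFH, the heavy neurofilament protein, was at 2.51, 3.49 and 7.67 CPM in control and at 6.70, 7.53 and 3.61 CPM with taurine (0.38, -0.46 to 1.23). Here control 3 was the highest control and taurine 3 the lowest taurine library. SDHA, the flavoprotein of complex II, was at 8.39, 11.9 and 12.0 CPM in control and at 14.4, 18.0 and 14.4 CPM with taurine (0.54, 0.06 to 1.02).

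**Figure D2:**
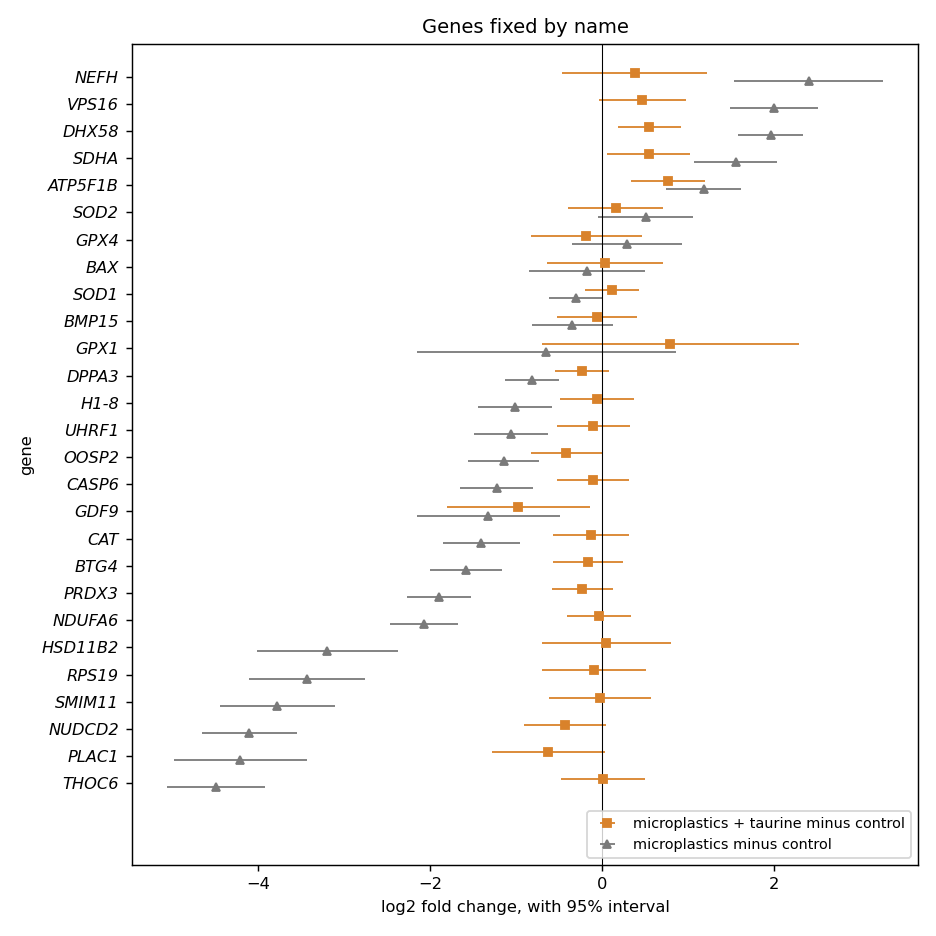
Log2 fold change against control with its 95% interval (horizontal axis) for 27 genes taken by name; squares are microplastics + taurine and triangles microplastics alone, both measured against the same 3 control libraries. THOC6, at -4.49 with microplastics, is at 0.01 with taurine, while GPX1 has an interval from -0.70 to 2.29.

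The antioxidant genes taken by name had estimates from -0.23 to 0.79. SOD1, the cytosolic superoxide dismutase, was at 281, 294 and 249 CPM in control and at 289, 322 and 282 CPM with taurine (0.11, -0.20 to 0.43). SOD2, its mitochondrial counterpart, was at 10.5, 11.6 and 16.1 CPM against 13.8, 17.0 and 11.8 CPM (0.16, -0.40 to 0.71). CAT, catalase, was at 381, 352 and 294 CPM in control and at 243, 287 and 407 CPM with taurine (-0.13, -0.57 to 0.31). PRDX3, the mitochondrial peroxiredoxin, had a log2 fold change of -0.23 (-0.59 to 0.12), and GPX4, which reduces lipid peroxides, one of -0.19 (-0.83 to 0.46). For these 5 genes the groups overlapped. GPX1, the cytosolic glutathione peroxidase, was at 16.2, 17.7 and 8.82 CPM in control and at 6.27, 9.02 and 58.8 CPM with taurine. Taurine 3 alone stood above all controls, while taurine 1 and 2 lay near the lowest control. The log2 fold change was 0.79 (-0.70 to 2.29) with all libraries and -0.89 without taurine 3. Without control 3 and taurine 3 it was -1.14 and called (adjusted p = 0.0426, edgeR quasi-likelihood test).

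Of 46 tested antioxidant genes none was called in either direction. Their estimates ran from -1.11 to 0.94, and the whole interval lay between -1 and 1 in 26 of them (56.5%, beside 57.5% of all genes). At an unadjusted p under 0.05, 0 were higher and 3 lower, beside 401 and 352 of all 13206 genes. The median log2 fold change of the list was -0.02, beside 0.02 over all genes tested. Under library size scaling alone that median was 0.03, and without control 3 and taurine 3 it was -0.19. In the microplastics comparison, which shares the control libraries, 4 of the same genes were called higher and 11 lower, where 1278 (9.68%) and 1935 (14.7%) of all genes were. BAX, a pro-apoptotic pore former, was at 10.7, 10.9 and 19.6 CPM in control and at 19.9, 12.7 and 9.58 CPM with taurine (0.03, -0.64 to 0.71). CASP6, an executioner caspase abundant in these oocytes, was at 1867, 1620 and 1225 CPM in control and at 1273, 1324 and 1781 CPM with taurine (-0.11, -0.52 to 0.31). For both genes the groups overlapped. Control 3 was the highest control library for BAX and the lowest for CASP6, and taurine 3 was the lowest and the highest taurine library. None of 21 pro-apoptotic or 19 anti-apoptotic genes was called, and the median was -0.04 for each list. Without control 3 and taurine 3 these medians were -0.01 and -0.34. TMBIM6, an anti-apoptotic protein of the endoplasmic reticulum, was the lowest estimate of its list at -1.07, with 267, 145 and 152 CPM in control and 55.6, 103 and 109 CPM with taurine; it was picked out after its values were seen.

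None of the oocyte factors was called. Of 17 oocyte markers, 0 were higher and 4 lower at an unadjusted p under 0.05. Over all 13206 genes, 401 were higher and 352 lower at that level. GDF9, a growth factor that the oocyte sends to its cumulus cells, was at 2616, 743 and 844 CPM in control and at 642, 756 and 737 CPM with taurine. Control 1 alone stood apart. The estimate was -0.98 (-1.81 to -0.15) with it and -0.16 without it. BMP15, its partner ligand, was at 2698, 3104 and 3038 CPM in control and at 2037, 2900 and 3520 CPM with taurine (-0.06, -0.53 to 0.40). OOSP2, an oocyte-secreted protein, was at 12716, 10075 and 11336 CPM against 10322, 8087 and 7166 CPM (-0.42, -0.83 to -0.01, adjusted p = 0.855, edgeR). BTG4, the adaptor that brings maternal mRNA to the CCR4-NOT deadenylase, was at 66079, 63497 and 48654 CPM in control and at 49042, 46479 and 63135 CPM with taurine (-0.17, -0.58 to 0.24). Here too control 3 lay among the taurine values, and taurine 3 lay next to control 2. H1-8, the oocyte linker histone, and UHRF1, a cofactor of DNA methylation maintenance, had estimates of -0.06 and -0.10. DPPA3, which protects maternal DNA methylation, was at 11656, 10836 and 10671 CPM in control and at 10534, 8281 and 9340 CPM with taurine (-0.24, -0.55 to 0.08), without overlap.

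Gene lists gave no call in either direction with the quasi-likelihood test, nor did the 5 genes that DESeq2 called include a listed gene. Among 74 cytosolic ribosomal protein genes 22 estimates were above 0, and the median was -0.08. With microplastics the same list had a median of -0.87, and 1 of its genes was called higher and 47 lower. Of all 13206 genes, 1278 (9.68%) were called higher and 1935 (14.7%) lower with microplastics, at a median of 0.04. Reads of ribosomal proteins can be shared with near-identical copies, so single members are uncertain. NDUFA13, COX4I1, CDC20, TUT4 and CDO1 below were picked out after their values were seen. Complex I subunits had a median of -0.17, with 4 of 38 estimates above 0. NDUFA13, an accessory subunit, was the lowest of them at -1.27. Complexes II to IV had a median of -0.27, with 4 of 24 above 0 and COX4I1, a subunit of cytochrome c oxidase, the lowest at -1.10. ATP synthase subunits had a median of -0.10, and mitochondrial ribosomal proteins one of -0.06. At an unadjusted p under 0.05, 0 genes of complex I were higher and 5 of 38 lower, 1 gene of complexes II to IV was higher and 3 of 24 lower, and 5 of 78 mitochondrial ribosomal proteins were higher and 3 lower. Of all 13206 genes, 401 were higher and 352 lower at that level. These medians were below 0 under all 3 scalings tried; with a trend on transcript length removed, cytosolic ribosomal proteins and ATP synthase were at 0.04 and 0.03. Without control 3 and taurine 3 the medians of complex I, complexes II to IV and ATP synthase were -0.35, -0.62 and -0.29, and those of cytosolic and mitochondrial ribosomal proteins -0.21 and -0.18, where all genes were at 0.01.

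Lists of oocyte biology followed. Maternal-effect genes, needed in the egg for the first divisions, had a median of 0.01 over 26 genes, and 30 genes of the spindle checkpoint and cohesion one of -0.05. Meiotic kinases with the anaphase-promoting complex were at -0.01, where CDC20, its activator, had an estimate of 0.56. Genes of maternal mRNA storage and decay had a median of -0.00 over 47 genes, with TUT4, a terminal uridylyltransferase, the lowest at -0.80. DNA and histone modification genes were at 0.14, with 33 of 46 estimates above 0. Zona pellucida and oocyte-secreted factors were at -0.18, with 3 of 11 estimates above 0. Of these 11 genes, 3 were lower at an unadjusted p under 0.05 (ZP3, GDF9 and OOSP2), beside 352 of all 13206 genes. Lists of mitochondrial dynamics (33 genes), autophagy and lysosome (45), and fatty acid oxidation with lipid droplets (32) had medians of 0.11, 0.06 and 0.10. Glycolysis with the citric acid cycle (42 genes), the unfolded protein and integrated stress responses (34) and the proteasome (37) had medians of 0.15, 0.01 and 0.03. Several of these medians depended on control 3 and taurine 3. Without them, over the members then tested, maternal-effect genes were at 0.43, DNA and histone modification genes at 0.21, and zona pellucida and oocyte-secreted factors at -0.30. The medians of glycolysis with the citric acid cycle and of autophagy and lysosome then turned to -0.12 and -0.09. The taurine synthesis and transport list had 7 tested genes and a median of 0.12, or 0.41 without those libraries. CDO1, cysteine dioxygenase, was at 262, 293 and 276 CPM in control and at 323, 292 and 291 CPM with taurine, an estimate of 0.12 (-0.18 to 0.43).

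The list medians also differed among libraries of 1 group. For complexes II to IV, the median deviation from the gene mean over the 6 libraries was 0.54 in control 1, 0.24 in control 2 and -0.22 in control 3. With taurine it was -0.51, 0.02 and -0.03 in libraries 1, 2 and 3. Maternal-effect genes were at -0.10, -0.22 and 0.33 in control and at 0.24, 0.13 and -0.22 with taurine. In that list control 3 was on the side of taurine 1 and 2, and taurine 3 on the side of control 1 and 2. Glycolysis and citric acid cycle genes had their highest value in taurine 3, at 0.27.

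**Figure D3:**
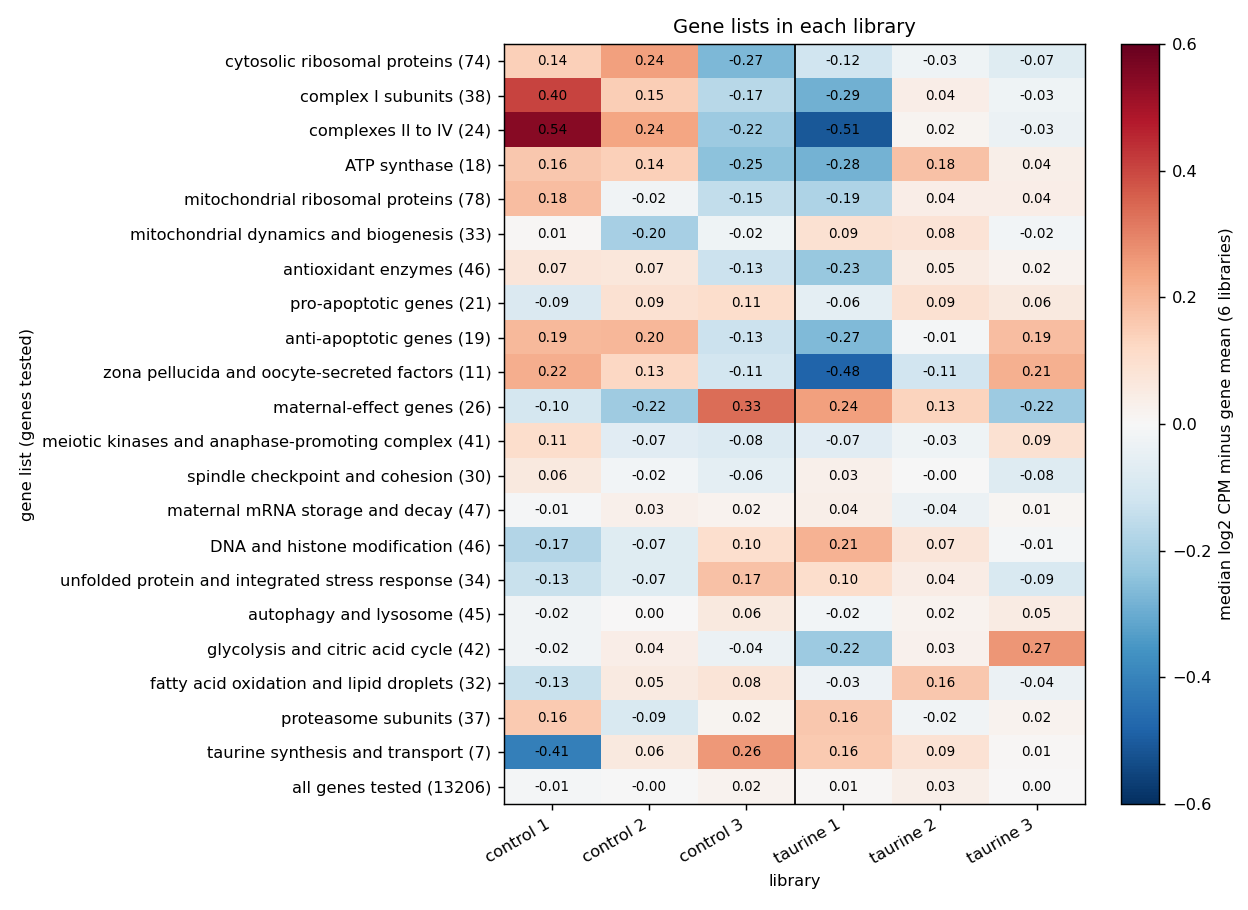
Median over each gene list of log2 CPM minus the gene's mean over the 6 libraries (colour and printed value), for control 1 to 3 left of the line and taurine 1 to 3 right of it; the number of tested genes stands in brackets. Maternal-effect genes are at 0.33 in control 3 and -0.22 in taurine 3, against the signs of their groupmates, and all genes tested are near 0 in every library.

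Control 3 and taurine 3 each resembled libraries of the other group. Over the 8335 genes averaging at least 5 CPM, the median absolute log2 difference between control 1 and control 2 was 0.22, and control 3 differed from them by 0.36 and 0.34. From taurine 1 and taurine 2, control 3 differed by 0.25 and 0.26. Taurine 3 differed from control 2 by 0.20, the smallest value between any pair among the 6 libraries, and from control 1 by 0.27. It differed by 0.43 from taurine 1 and by 0.29 from taurine 2. Against the microplastics libraries, control 3 was at 0.40 to 0.43 and taurine 3 at 0.53 to 0.61. Composition divided the libraries likewise: the 100 most abundant genes took 37.4% and 36.4% of reads in control 1 and 2, 36.2% in taurine 3, and 33.3%, 33.1% and 33.4% in control 3, taurine 1 and taurine 2. BTG4 alone took 5.52%, 5.40% and 5.31% in the first 3 of these and 4.73%, 4.70% and 4.41% in the others. The labels give no batch, date or animal by which to divide the libraries, and whether a library carries another group's label was not tested. Libraries keep their labelled group throughout.

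**Figure D4:**
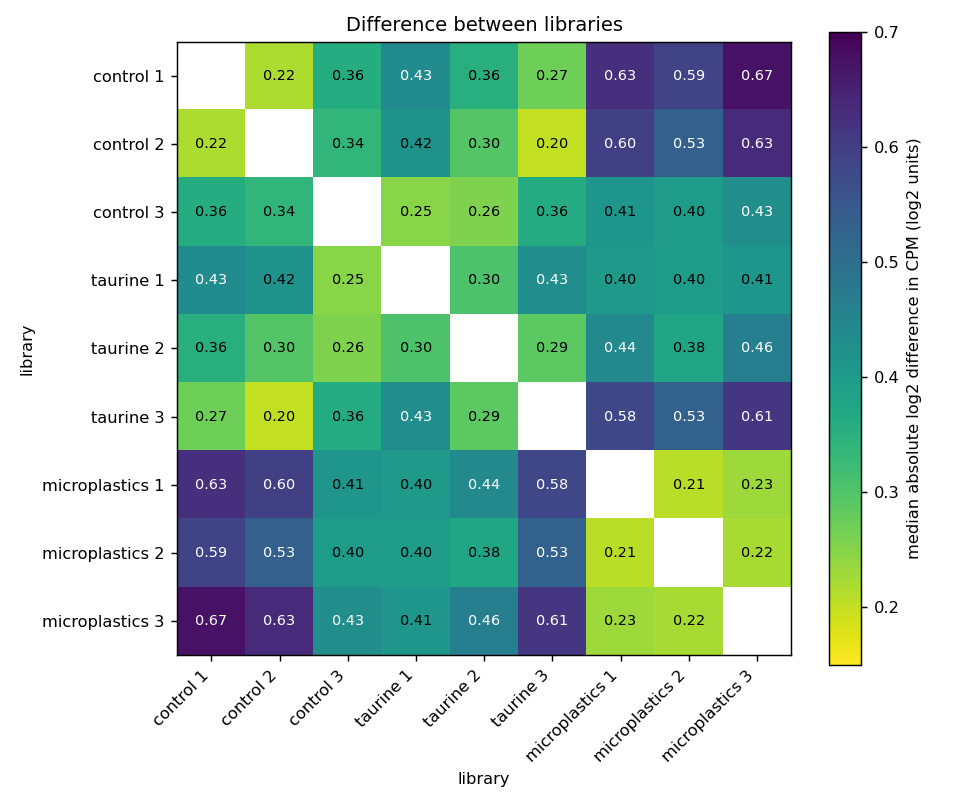
Median absolute log2 difference in CPM between each pair of libraries over genes averaging at least 5 CPM (colour and printed value, log2 units). Control 3 is closer to taurine 1 and 2 (0.25 and 0.26) than to control 1 and 2 (0.36 and 0.34), and taurine 3 is closest to control 2 (0.20).

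With control 3 and taurine 3 both left out, many genes differed. The quasi-likelihood test then called 783 of 13426 genes, 623 higher (4.64%) and 160 lower (1.19%). Leaving out any of the other 8 pairs of 1 control and 1 taurine library called 0 genes, or 1 gene in the case of control 3 with taurine 1. This pair was chosen with the libraries' positions known, so the count is no independent evidence of a difference. It also moved with the setting. Scaled by library size alone the count was 1307, of which 92.7% were higher, beside 79.6% in the count of 783. DESeq2's Wald test called 1419 genes, 60.6% of them higher, and removal of the length trend gave 758, 64.6% of them higher. When control 1 and 2 and taurine 1 and 2 were fitted without the microplastics libraries, 0 genes were called at a smallest adjusted p of 0.0511 (edgeR), with 2515 at an unadjusted p under 0.05. Leaving out a further library gave 63 genes without control 1, 503 without control 2, 120 without taurine 1, 1227 without taurine 2, and 399, 479 and 522 without microplastics 1, 2 and 3.

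The libraries left out can be placed on the scale that the other 4 define, where 0 is the mean of control 1 and 2 and 1 the mean of taurine 1 and 2 in log2 CPM. Over the 783 genes, control 3 lay nearer to taurine in 676 (86.3%), at a median position of 0.83. Taurine 3 lay nearer to control in 682 (87.1%), at a median position of 0.14. The microplastics mean was at a median of 1.05. Over all 13426 genes the corresponding shares were 62.9% and 61.4%. Genes called higher showed the pattern more often than genes called lower, 92.9% and 91.3% against 60.6% and 70.6%. The difference was not tested. For control 3 the share among the 160 genes called lower was thus not above the 62.9% of all genes. Scaled by library size alone it was 46.3% of 95 genes called lower. In size, the 623 higher genes had a median log2 difference of 1.30 between the 4 libraries used, and control 3 lay 1.13 and taurine 3 lay 0.15 above the mean of control 1 and 2. These genes share libraries and scaling, so the shares are a description.

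**Figure D5:**
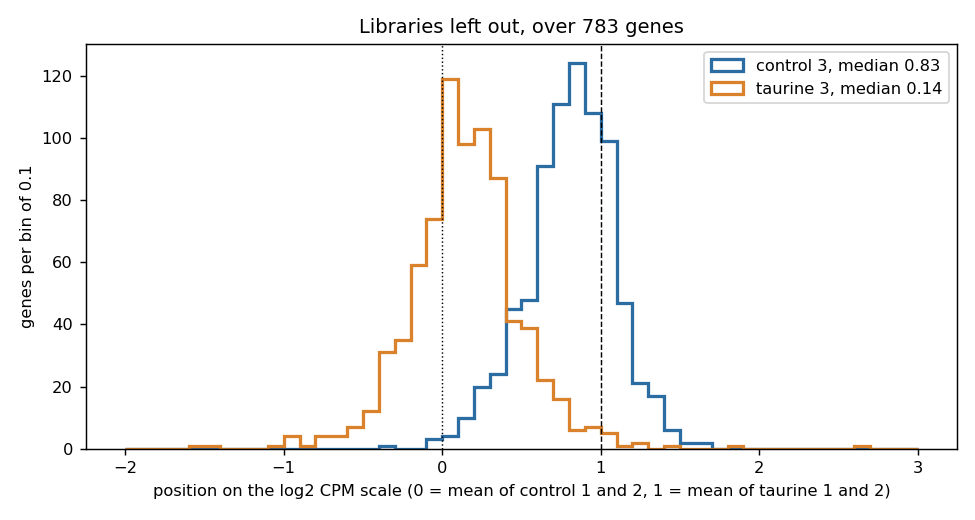
Position of control 3 and taurine 3 on the log2 CPM scale set by the other libraries (horizontal axis, 0 is the mean of control 1 and 2, 1 the mean of taurine 1 and 2), as the number of genes per bin of 0.1 over the 783 genes called without them. The median position is 0.83 for control 3 and 0.14 for taurine 3, each nearer to the other group's mean.

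Single genes with a mean of at least 5 CPM in the higher group show the same arrangement. MSI1, the Musashi protein that regulates translation of stored mRNA in oocytes, was at 2.07 and 3.70 CPM in control 1 and 2 and at 36.7 and 15.7 CPM in taurine 1 and 2. Control 3 was at 21.3 CPM and taurine 3 at 2.79 CPM, each within the range of the other group. Its log2 fold change was 3.18 without these libraries and 1.02 (-0.96 to 3.00) with them. SART1, a component of the spliceosomal tri-snRNP, was at 2.01 and 2.22 CPM against 12.1 and 12.5 CPM, with control 3 at 12.7 CPM and taurine 3 at 1.26 CPM. PIP5K1C, a kinase that makes phosphatidylinositol bisphosphate, was at 3.54 and 6.08 CPM against 29.8 and 20.7 CPM, with control 3 at 26.8 CPM and taurine 3 at 4.21 CPM. In these 3 genes the microplastics libraries, at 16.4 to 18.2, 8.80 to 15.1 and 26.8 to 32.1 CPM, lay within or near the range of taurine 1 and 2.

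The other 5 genes called higher in that fit did likewise in part. BYSL, a factor of small ribosomal subunit assembly, OSBPL2, an oxysterol-binding protein, and UBE2O, a ubiquitin-conjugating enzyme, had log2 fold changes of 2.94, 2.71 and 2.69. Control 3 was at 10.1, 8.53 and 7.63 CPM in them, above control 1 and 2, which reached at most 1.69, 1.27 and 2.83 CPM. CARS1, cysteinyl-tRNA synthetase, and SETD1B, a histone H3 lysine methyltransferase, had values of 2.53 and 2.42. SETD1B placed taurine 3 at 2.57 CPM, between control 1 at 1.42 CPM and taurine 2 at 3.43 CPM. With all libraries, none of these 8 genes had an interval that excluded 0.

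Genes called lower without the pair were less uniform. RADX, a single-stranded DNA-binding protein of replication forks, was at 25.5 and 25.5 CPM in control 1 and 2, at 4.66 and 5.69 CPM in taurine 1 and 2, at 4.34 CPM in control 3 and at 8.81 CPM in taurine 3. Both libraries left out thus lay nearer to taurine. TUBA1A, an alpha-tubulin, was at 78.4 and 51.5 CPM against 17.5 and 10.2 CPM, with control 3 at 29.5 CPM and taurine 3 at 161 CPM, above every other library. STC1, the secreted hormone stanniocalcin, was at 13.1 and 40.4 CPM against 5.37 and 4.78 CPM, with control 3 at 7.198 CPM and taurine 3 at 46.9 CPM. PCOLCE2, an enhancer of procollagen processing, was at 29.2 and 19.4 CPM against 4.56 and 7.05 CPM, and taurine 3 at 7.06 CPM stayed with its group. RND3 also appeared here, at -2.85. Among uncharacterised loci, LOC101904614 was called at -2.30. LOC786299 and LOC101903261 had 4 and 3 reads in taurine 1, 1 and 2 reads in taurine 2, but 95 and 80 reads in taurine 3. Their values ran in parallel over the libraries, and whether they share reads was not tested.

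Members of the biological lists called without the pair were picked after their values were seen. For mRNA storage and decay, CNOT3, a CCR4-NOT subunit, was at 38.4 and 47.8 CPM in control 1 and 2, 181 and 121 CPM in taurine 1 and 2, 139 CPM in control 3 and 43.3 CPM in taurine 3. EIF4E1B, the oocyte cap-binding protein, was at 109 and 101 CPM against 220 and 267 CPM, with control 3 at 256 CPM and taurine 3 at 100.3 CPM. Of that list 3 genes were called higher and 3 lower of 47, the lower being CNOT7, DDX6 and TUT4. Maternal-effect genes gave 5 higher and 0 lower of 26 with the quasi-likelihood test (SMARCA4, TRIM28, TLE6, YBX2 and HSF1). YBX2 was also among the 3 higher genes of the storage and decay list, so the counts are not separate. Over all genes tested in that fit, 4.64% were called higher and 1.19% lower. SMARCA4, the chromatin-remodelling ATPase, was at 8.99 and 13.1 CPM against 32.0 and 25.1 CPM, with control 3 at 22.4 CPM and taurine 3 at 10.3 CPM.

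Cell cycle, stress and redox genes were called too. CCNB1, the cyclin of maturation-promoting factor, was at 10483 and 9914 CPM in control 1 and 2, 5131 and 6741 CPM in taurine 1 and 2, 6457 CPM in control 3 and 9440 CPM in taurine 3. CDC25A, a phosphatase that activates cyclin-dependent kinases, was at 1.85 and 3.38 CPM against 9.41 and 12.2 CPM, with control 3 at 10.4 CPM and taurine 3 at 2.52 CPM. ATF4 and PDIA4, of the integrated stress and unfolded protein responses, were called higher at 0.84 and 1.08. Antioxidant genes gave 3 higher (GSS, KEAP1 and SESN2) and 3 lower (GPX1, TXNIP and GSTM3) of 46. GSS, glutathione synthetase, was at 3.70 and 2.38 CPM against 12.2 and 8.98 CPM, with control 3 at 8.34 CPM and taurine 3 at 3.72 CPM. KEAP1, the redox-sensitive inhibitor of NRF2, was at 12.4 and 13.7 CPM against 39.0 and 27.2 CPM, with control 3 at 22.02 CPM and taurine 3 at 10.9 CPM. Proteasome subunits gave 3 higher of 37 (PSMD2, PSMD3 and PSMD4), and in respiratory complexes NDUFC2 and COX7A2L were called lower and ATP5F1B higher. Against backgrounds of 4.64% higher and 1.19% lower, nothing particular to any list is read from these counts.

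Genes of different transcript length did not behave alike. Over 11279 tested genes with a length (85.4%), put into 5 classes by length, the median log2 fold change with all libraries was -0.07, 0.03, 0.10, 0.04 and 0.01 from the shortest class to the longest. Without control 3 and taurine 3 these values were -0.19, -0.02, 0.13, 0.09 and 0.06. For microplastics against the same controls they were -0.37, -0.09, 0.07, 0.17 and 0.27. Relative to the gene mean, the shortest class was at 0.16, 0.07 and -0.11 in control 1, 2 and 3 and at -0.12, 0.01 and -0.01 in taurine 1, 2 and 3. Of the 783 calls, 44, 118, 171, 172 and 97 higher genes and 41, 25, 32, 29 and 29 lower genes were in the classes from shortest to longest. Higher calls were thus most frequent in the middle classes. The part of length in the calls was tested only by removing the trend, which gave the 758 genes above.

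Individual transcript models gave a few more differences than whole genes. Testing each transcript on its own called 4 of 15609 (0.0256%), all higher with taurine at an adjusted p of 0.0380 (edgeR quasi-likelihood test). The model of gene ID 539802 was 1 of them. A model of MAPK6, an atypical MAP kinase, had 0 reads in every control library, 95, 112 and 34 reads with taurine, and 135, 166 and 175 reads with microplastics. The main model of that gene held 4715, 5217 and 4333 reads in control and 4476, 3660 and 4408 with taurine. A model of NEFH had 0 reads in control, 88, 34 and 38 reads with taurine and 275, 361 and 331 reads with microplastics, and a model of KIAA0753 had 0 reads in control, 55, 35 and 56 reads with taurine, and 46, 33 and 56 with microplastics. Summed over their models, the last 3 genes were not called. Transcripts at 0 in all controls and at 20 or more reads in every taurine library numbered 8 of 22590, and the reverse held for 1. Assignment of reads among models of a gene can place them at 0 in a library, and its part here was not tested.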

How the data were processed

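RNA of bovine metaphase II oocytes was sequenced in 9 libraries, 3 in each of 3 groups. Per the labels' protocols, RNA was extracted with TRIzol and libraries followed a standard BGI protocol. Aligner, counter and genome build were not given in the sources used here. Estimated counts were deposited by the authors for 22590 transcripts, per the file headers; they are not whole numbers in every case and were not normalized. The authors' FPKM values, also deposited, were used here only for the transcript length that counts and FPKM imply, in transcripts of at least 1 FPKM. The authors' deposited TPM values, summing to 1000000 or 1000001, and a deposited signal, the rounded counts times 1 factor per library, did not enter any test.

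Transcripts of 1 gene ID were added up and the sums rounded. Symbols from a RefSeq gene table matched 16995 of 17852 genes (95.2%). Genes passing edgeR's filter (minimum count 10, minimum total 15) were tested in R 4.3.3 with edgeR 4.0.16 (robust quasi-likelihood fit, TMM factors), 1 coefficient per group over all 9 libraries, Benjamini-Hochberg adjustment and a threshold of 0.05. Intervals are 95% intervals of the fit; the log2 CPM used between libraries has a prior count of 2. The floor of 3 reads covers counting error only, and the labels name no molecular identifiers. The 95% intervals of the fit include the spread between libraries, estimated over all 9 of them. Groupmates differed by 46.9 to 208 times the variance that counting alone gives, so none was treated as repeat sequencing of 1 library. These values cannot tell separate animals or cultures from portions of 1 pool. Depth was 21.17 to 22.74 M estimated reads.

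Genes were named by this rule: called genes with a symbol and at least 5 CPM in the higher group; where a direction had under 10, those with the smallest unadjusted p to make 10, given as values; among genes called without control 3 and taurine 3, under the same limits on symbol and level and where the 4 libraries did not overlap, the 8 higher and 8 lower with the greatest fold; called list members; and 27 genes by name. Members, lists and these rules were chosen with earlier results of these data known. Alternatives were DESeq2 size factors, library size alone, no filter, 5 CPM in 3 libraries, DESeq2 1.42.0, limma-voom 3.58.1, the 6 compared libraries alone, the replicate number as a block, a length trend removed (lowess), each library or pair left out, each transcript, adjusted p under 0.1 and a log2 fold of at least 1. For the fit without control 3 and taurine 3, DESeq2 size factors and an adjusted p under 0.01 were planned and its other settings were added after seeing the data. Same-numbered control and taurine libraries deviated from their group means with correlations of -0.16, -0.07 and -0.44. Deviations from a mean of 3 libraries depend on each other, so these values cannot decide whether the numbers pair libraries.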

Additional observations from a re-analysis of the deposited data

How the results depend on the processing

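The count of 1 gene called with all libraries stayed at 1 with DESeq2 size factors, library size alone, no filter, limma-voom, the length trend removed, an adjusted p under 0.1 and a log2 fold of at least 1. It was 0 with 5 CPM in 3 libraries and 0 with the 6 compared libraries alone (526 and 448 genes at an unadjusted p under 0.05), 5 with DESeq2's Wald test, 4 with each transcript, 783 without control 3 and taurine 3, and 0 or 1 without each of the other 8 pairs. Leaving out 1 library gave 0 to 2 genes, NOP9 being the second without taurine 3. The replicate block gave 0 genes, with 551 at an unadjusted p under 0.05, and gene ID 539802 then had an adjusted p of 0.232 (edgeR). The count of 783 was 1307 with library size alone, 1419 with DESeq2's Wald test, 0 with the 4 compared libraries alone and 123 at an adjusted p under 0.01; leaving out a further library gave 63 to 1227. It was 747, 1007, 775, 537, 765 and 758 with DESeq2 size factors, no filter, 5 CPM in 3 libraries, limma-voom, the replicate block and the length trend removed. Control 3 lay nearer the other group in 91.9% and taurine 3 in 96.7% of genes at an adjusted p under 0.01, and control 3 in 89.5% with library size alone. The estimate of GPX1 turned to -1.14 without control 3 and taurine 3. In 34 further sign changes among 1144 gene and setting pairs, the gene was called in neither of the fits compared. Calls were gained in 18 pairs, 13 of them without control 3 and taurine 3, and the causes were not tested. With library size alone the all-gene median log2 went from 0.02 to 0.07, or from 0.01 to 0.19 without control 3 and taurine 3. Groups of 3 limit the precision: among genes under 5 CPM, 17.7% had an interval wholly within 2-fold of control.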
